A study of Mus musculus with 20 samples.

Results

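The genes described here are 7 subunits of the GABA-A receptor, namely *Gabra2*, *Gabra3*, *Gabra4*, *Gabra5*, *Gabrb1*, *Gabrb2* and *Gabrd*. They were chosen by name, and all 7 were found among the 35580 genes of the files, with 27 of the 115270 transcripts in the files. The mRNA of whole brain regions was sequenced in male C57BL/6J mice aged 13.5 months, and each library holds all cell types of its region. There were 5 samples each of WT hippocampus, miR-324-null hippocampus, WT neocortex and miR-324-null neocortex (the cortex samples are labelled cerebral cortex). The miR-324-null mice lack the *Mir324* locus in every cell, after CRISPR/Cas9 deletion in founders of mixed C57BL/6 and CBA/ca background that were then backcrossed to C57BL/6J. The WT mice carry no deletion and were kept as a line of their own, so genotype and line cannot be told apart. The series asks what the loss of this brain-enriched microRNA does to gene expression.

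GABA-A receptors are pentameric chloride channels that open when GABA, the main inhibitory transmitter of the brain, binds between an alpha and a beta subunit. Most receptors also hold a gamma or a delta subunit. The alpha subunit largely sets where a receptor sits, how it responds to benzodiazepines and how quickly its current decays, and receptors with alpha 5 or with delta lie mostly outside synapses and carry a steady, tonic inhibition. Alpha 5 is known for its abundance in pyramidal cells of the hippocampus, and delta for its pairing with alpha 4 in granule cells of the dentate gyrus.

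MicroRNAs lower the level of mRNAs mainly through a match of bases 2 to 8, the seed, to the 3′UTR. The mature sequences of both arms of miR-324 (RefSeq, GRCm38.p6, chromosome 11) are shown with the seed in capitals, since a member bound through these seeds would carry the reverse complement. Shorter matches and the shifted seed of another form of the 3p arm were not searched.
mmu-miR-324-5p: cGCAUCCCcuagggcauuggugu
mmu-miR-324-3p: cCACUGCCccaggugcugcu
The complement of the 5p seed, GGGATGC, was found in the annotated 3′UTRs of 0 of the 7 members, against 9.59% of the 14294 genes tested in the hippocampus that have an annotated 3′UTR. The complement of the 3p seed, GGCAGTG, was found in 2 of the 7, *Gabrb1* and *Gabrd*, against 17.2% of those genes. Only the strand of the transcript was searched. The 3 matches, in capitals with their flanks in GRCm38, are these.
Gabrb1 first match, chr5:72143839-72143868, plus strand: gccatcttctaGGCAGTGtctgagcccaaa
Gabrb1 second match, chr5:72147634-72147663, plus strand: tgaccgctgccGGCAGTGattcaaacacct
Gabrd match, chr4:155385381-155385410, minus strand: caccatgtgacGGCAGTGtgtgcaccaggt
The second match of *Gabrb1* is followed by an A, which lengthens a site by the usual rule, and the match of *Gabrd* starts at base 2 of its 3′UTR, so that the flank before it includes coding sequence. The 3′UTR of *Gabrb1* is the longest of the members at 12228 bases, and 48.2% of the 388 tested genes whose longest 3′UTR is within a factor of 2 of that length hold the 3p match. For *Gabrd*, whose 3′UTR has 421 bases, 6.22% of 4132 genes of like length hold it. A match of letters is a description and no evidence of binding.

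Libraries held 12752439 to 19617765 estimated counts each, and the lowest level of any member in any sample was 18.1 CPM (the count scaled to the size of the library). The tissue labels were checked with marker genes. In WT samples 4 of 5 dentate granule cell markers, 2 of 3 CA1 and 3 of 3 CA3 markers and *Zbtb20* were higher in the hippocampus, and 8 of 10 markers of neocortical projection neurons were lower there, with 1 higher. No marker gene was at 0 in all samples of a group. Some libraries stood apart in other tissues' markers. The summed level of the 5 choroid plexus markers was 6945 TPM (a level scaled by transcript length as well as by library size) in WT hippocampus replicate 3, 6007 TPM in miR-324-null hippocampus replicate 5 and 1283 TPM in miR-324-null neocortex replicate 2, against 18.2 to 181 TPM in the other samples. The 8 markers of striatal projection neurons summed to 182 to 466 TPM in WT neocortex and to 307 to 925 TPM in miR-324-null neocortex. Without the 3 choroid plexus-rich libraries, an alternative added after the data were seen, the number of members called was the same in every comparison below, 0, 0, 6, 5 and 0.

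Levels of different members can be compared per length, on the TPM scale. *Gabra5* had the highest level in the hippocampus, 129 ± 13.8 TPM (SD, n = 5) in WT and 142 ± 7.52 TPM in miR-324-null samples, and every sample of it was above every sample of the next member, *Gabra4*. The next level, *Gabra4* at 40.0 ± 4.76 TPM in WT hippocampus, was followed by *Gabra3*, *Gabrb2*, *Gabra2*, *Gabrd* and *Gabrb1*, the last at 21.4 ± 3.33 TPM. The ranges of all neighbours in that order after *Gabra5* overlapped in WT hippocampus. In miR-324-null hippocampus the order after *Gabra5* was *Gabra4*, *Gabra3*, *Gabra2*, *Gabrb2*, *Gabrb1* and *Gabrd*, and neighbours in it overlapped as well.

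The order was another in the neocortex. *Gabra3* led with 81.0 ± 4.09 TPM in WT and 83.3 ± 4.09 TPM in miR-324-null samples, followed by *Gabrd* with 62.4 ± 5.18 and 60.0 ± 10.5 TPM. *Gabra4*, *Gabrb2* and *Gabra5* then lay between 36.1 and 42.2 TPM in WT, and *Gabra2* (17.4 ± 0.909 TPM) and *Gabrb1* (15.9 ± 1.39 TPM) were lowest. In WT neocortex the ranges did not overlap between *Gabra3* and *Gabrd*, between *Gabrd* and *Gabra4*, or between *Gabra5* and *Gabra2*. The summed TPM of the 7 members differed little between groups for all that, at 301 ± 29.6, 321 ± 31.8, 297 ± 10.4 and 316 ± 16.1 TPM in WT hippocampus, miR-324-null hippocampus, WT neocortex and miR-324-null neocortex.

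**Figure D1:**
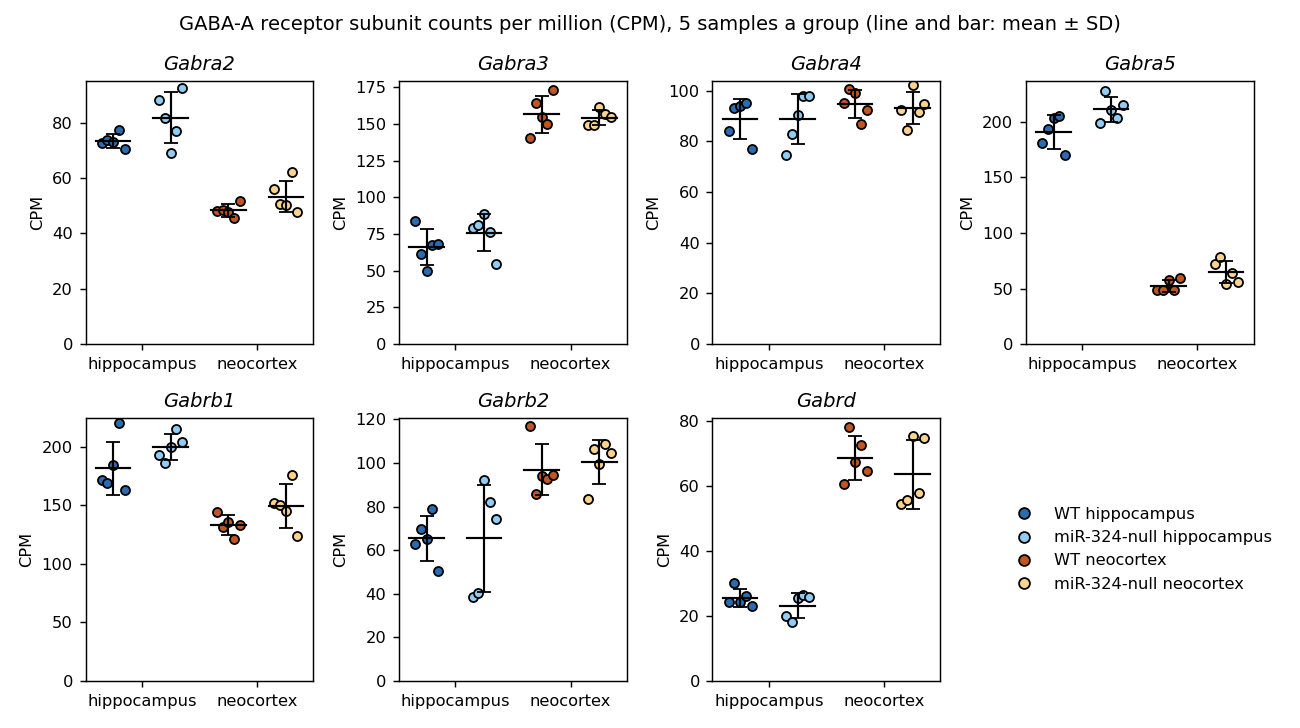
Level of each of the 7 subunit genes in CPM (vertical axes, linear and starting at 0) in the 20 samples, with the 5 samples of a group as points and the mean ± SD as line and bar. *Gabra5* was high in the hippocampus (170.2 to 228 CPM) and *Gabra3* and *Gabrd* in the neocortex (140.2 to 173 and 54.4 to 77.9 CPM), while the groups of *Gabra4* overlapped.

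The comparison of tissues asked which subunits mark the hippocampus against the neocortex in mice of the same genotype. Of the 7 members, 6 passed in WT, against 36.1% of the 14894 genes tested. *Gabra5*, *Gabra2* and *Gabrb1* were higher in the hippocampus (18.1% of all genes were) and *Gabra3*, *Gabrb2* and *Gabrd* lower (18.0% of all genes). In miR-324-null mice 5 passed, against 27.4% of 15033 genes. *Gabra5*, *Gabra2* and *Gabrb1* were again higher (13.8% of all genes) and *Gabra3* and *Gabrd* lower (13.6%). The ranges of the tissues did not overlap for 6 members in WT and for 5 in miR-324-null samples, against 26.5% and 21.1% of the genes tested. The adjusted p values given for tissues and genotypes are those of the edgeR quasi-likelihood test, adjusted by Benjamini-Hochberg across the whole table, and the threshold was 0.05. The comparisons share samples, as each group of 5 enters a comparison of tissues and a comparison of genotypes.

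*Gabra5* encodes the alpha 5 subunit and showed the largest tissue difference among the members. In WT hippocampus it stood at 181, 194, 203, 206 and 170.2 CPM in replicates 1 to 5, the order used for each list of 5 values. In WT neocortex it stood at 48.8, 49.0, 57.3, 48.7 and 59.3 CPM. Every hippocampal sample was above every neocortical sample by a wide margin. The hippocampal level was 3.63-fold higher (log2 fold change 1.86, standard error 0.07, adjusted p = 1.41e-09). In miR-324-null mice the values were 199, 228, 211, 203 and 215 CPM in the hippocampus. They were 71.8, 78.4, 54.4, 64.1 and 56.4 CPM in the neocortex, again with no overlap between tissues. The difference there was 3.28-fold (log2 fold change 1.71, standard error 0.10, adjusted p = 4.17e-07).

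*Gabra3*, the X-linked gene of the alpha 3 subunit, had the opposite pattern. It stood at 83.6, 61.2, 49.7, 67.4 and 68.4 CPM in WT hippocampus and at 140.2, 164, 155, 150.0 and 173 CPM in WT neocortex. In miR-324-null mice it stood at 79.0, 81.0, 88.3, 76.3 and 54.8 CPM in the hippocampus and at 149, 149, 161, 157 and 155 CPM in the neocortex. The lowest hippocampal values in each genotype were those of the libraries rich in choroid plexus markers, WT replicate 3 and miR-324-null replicate 5. These libraries also had the highest summed dentate granule cell markers of their groups, 186.5 and 196.9 TPM. Their summed CA1 markers were the lowest, 219.9 and 204.7 TPM. Neocortical levels were 2.40-fold higher in WT and 2.06-fold higher in miR-324-null mice. The log2 fold changes of hippocampus over neocortex were -1.24 (standard error 0.11, adjusted p = 1.27e-06) and -1.02 (standard error 0.10, adjusted p = 1.65e-05). The part of the choroid plexus, dentate granule cells or CA1 cells in these values was not tested. *Gabra3* was called in both genotypes without the choroid plexus-rich libraries as well.

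*Gabra2* encodes alpha 2, a subunit known from the initial segment of pyramidal cell axons. It stood at 72.6, 73.6, 73.0, 77.4 and 70.4 CPM in WT hippocampus and at 48.2, 48.6, 47.8, 45.4 and 51.9 CPM in WT neocortex, with little spread in either. In miR-324-null samples it stood at 88.3, 81.6, 69.2, 77.2 and 92.7 CPM in the hippocampus and at 55.9, 50.7, 50.3, 62.1 and 47.6 CPM in the neocortex. The tissues did not overlap in either genotype, and the miR-324-null samples spread more than the WT samples in both tissues. The hippocampal level was 1.52-fold higher in WT (log2 fold change 0.60, standard error 0.05, adjusted p = 3.54e-07) and 1.53-fold higher in miR-324-null mice (log2 fold change 0.63, standard error 0.09, adjusted p = 0.000246).

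*Gabra4*, the usual partner of delta in granule cells and thalamus, was the only member that was not called between tissues in either genotype by any alternative. In WT hippocampus it stood at 84.1, 93.2, 94.0, 95.1 and 77.0 CPM and in WT neocortex at 95.2, 101, 99.0, 86.9 and 92.2 CPM. In miR-324-null mice it stood at 74.8, 83.0, 90.3, 98.0 and 97.7 CPM in the hippocampus and at 92.5, 84.6, 102, 91.5 and 94.7 CPM in the neocortex. All 4 groups overlapped. The log2 fold change of hippocampus over neocortex was -0.10 in WT (95% interval -0.23 to 0.04, adjusted p = 0.276) and -0.06 in miR-324-null mice (95% interval -0.23 to 0.11, adjusted p = 0.621), so a difference as large as that of *Gabra2*, in either direction, lay outside these intervals.

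The beta subunits *Gabrb1* and *Gabrb2*, which carry part of the GABA binding site, went opposite ways in WT. *Gabrb1* stood at 172, 169, 185, 220.0 and 163 CPM in WT hippocampus and at 145, 131, 136, 122 and 133 CPM in WT neocortex. In miR-324-null mice it stood at 193, 187, 199.9, 216 and 204 CPM in the hippocampus and at 152, 151, 145, 176 and 124 CPM in the neocortex. The groups of the tissues did not overlap in either genotype. The hippocampal level was 1.36-fold higher in WT (log2 fold change 0.45, standard error 0.08, adjusted p = 0.000453) and 1.35-fold higher in miR-324-null mice (log2 fold change 0.43, standard error 0.08, adjusted p = 0.00189). *Gabrb1* and *Gabra4* share 196 bases on opposite strands of chromosome 5, and since it is not stated whether the counting used the strand of the reads, reads from those bases may have been given to either gene.

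*Gabrb2* stood at 62.7, 69.8, 65.1, 78.9 and 50.2 CPM in WT hippocampus and at 117, 85.9, 94.2, 92.4 and 94.6 CPM in WT neocortex, with no overlap. Neocortical levels in WT were 1.49-fold higher (log2 fold change of hippocampus over neocortex -0.57, standard error 0.11, adjusted p = 0.00095). In miR-324-null hippocampus the samples fell apart, at 38.4 and 40.4 CPM in replicates 1 and 2 against 91.96, 82.0 and 74.1 CPM in replicates 3 to 5. The first pair lay below every WT hippocampal sample and 1 of the others reached into the neocortical range of 83.4, 107, 99.6, 109 and 104 CPM. Replicates 1 and 2 also had higher summed interneuron markers, 1325 and 1231 TPM against 882 to 1159 TPM in replicates 3 to 5. Their summed astrocyte markers were lower, 589 and 630 TPM against 696 to 790 TPM. Summed thalamic (124 and 91.2 against 53.5 to 73.7 TPM) and CA3 markers (110.2 and 155 against 85.9 to 107 TPM) were also higher. Neocortical projection neuron markers (181 and 188 against 191 to 245 TPM), *Zbtb20*, microglial and endothelial markers were also lower. So were the summed other GABA-A subunit genes, 272.5 and 270 TPM against 363 to 436 TPM. Markers of dentate granule cells, CA1, striatum, choroid plexus and oligodendrocytes overlapped. The part of tissue composition in this split was not tested. The log2 fold change in miR-324-null mice, -0.61 with a standard error of 0.21, was about that of WT but missed the threshold (adjusted p = 0.0518), and over 19 alternatives its adjusted p ranged from 0.0131 to 0.108. *Gabrb2* was called there under 5 alternatives that kept every sample and when replicate 3 or replicate 4 of the hippocampus was left out.

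*Gabrd*, which encodes the delta subunit, was the member most reduced in the hippocampus. It stood at 24.3, 30.0, 24.2, 26.2 and 23.1 CPM in WT hippocampus and at 60.5, 77.9, 67.3, 72.4 and 64.6 CPM in WT neocortex. In miR-324-null mice it stood at 19.8, 18.1, 25.6, 26.4 and 25.7 CPM in the hippocampus and at 54.4, 55.5, 75.2, 57.7 and 74.8 CPM in the neocortex. The tissues were far apart in both genotypes, and miR-324-null hippocampus replicates 1 and 2, low for *Gabrb2*, were also the lowest for *Gabrd*. Neocortical levels were 2.68-fold higher in WT and 2.75-fold higher in miR-324-null mice. The log2 fold changes of hippocampus over neocortex were -1.42 (standard error 0.08, adjusted p = 3.35e-08) and -1.45 (standard error 0.13, adjusted p = 8.54e-06). For each pair of tissues that did not overlap, the exact permutation test on mean log2 CPM (two-sided, 5 against 5) gave p = 0.00794, the smallest it can give.

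The tissue differences stood beside differences in cell type markers. Of 8 markers of GABAergic interneurons, 7 were lower in WT hippocampus and 6 in miR-324-null hippocampus, and their summed level was 865 to 1177 TPM in WT hippocampus and 882 to 1325 TPM in miR-324-null hippocampus, against 1218 to 1341 and 1233 to 1376 TPM in the neocortex. The 10 markers of neocortical projection neurons summed to 179.8 to 245 TPM over the hippocampal samples and to 458 to 726 TPM over the neocortical samples. In bulk tissue of this kind, fewer cells of a type and less RNA per cell cannot be told apart, and the part of the cell types in the levels of the members was not tested.

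**Figure D2:**
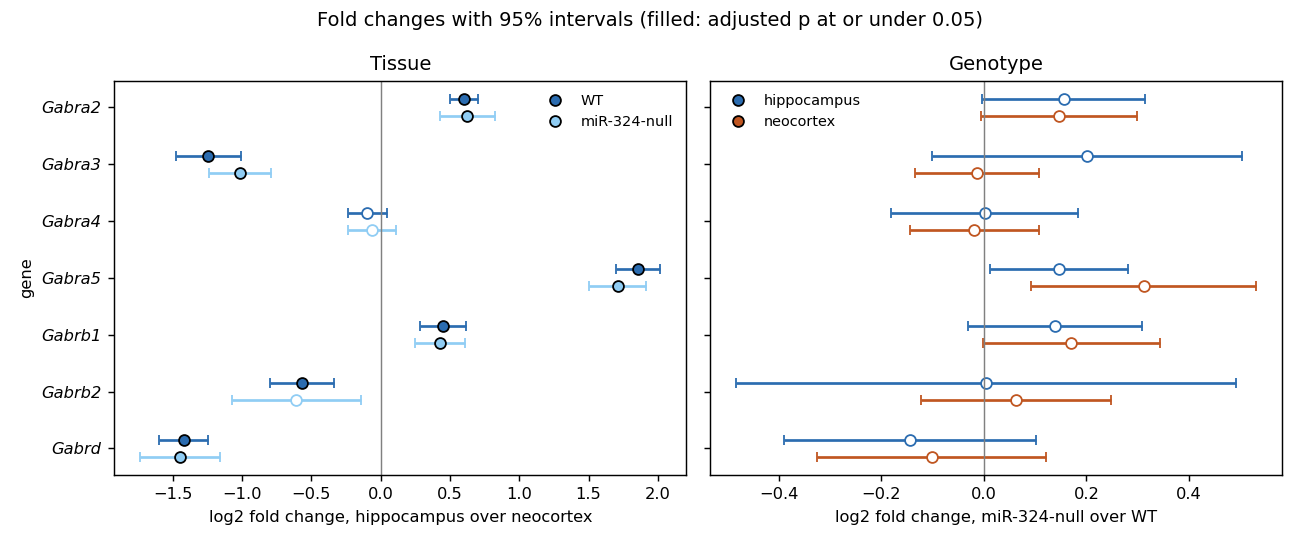
Log2 fold changes of the 7 members with 95% intervals from edgeR's quasi-likelihood test (horizontal axes), for hippocampus over neocortex within each genotype (left) and for miR-324-null over WT within each tissue (right, on a narrower axis). Filled points have an adjusted p of at most 0.05, which holds for 6 members in WT and 5 in miR-324-null mice between tissues and for none between genotypes.

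The make-up of each subunit class differed between the tissues. Within the summed TPM of the 4 alpha members, *Gabra5* made up 56.6 ± 1.59% in WT hippocampus (54.7% to 58.7%) and 20.4 ± 1.11% in WT neocortex (18.8% to 21.6%). *Gabra3* made up 14.6 ± 2.59% and 45.9 ± 1.83%. The share of *Gabra4* was 17.5 ± 1.29% in WT hippocampus and 23.9 ± 2.21% in WT neocortex, although its level did not pass the test between tissues, and that of *Gabra2* was 11.3 ± 0.467% and 9.86 ± 0.573%. By estimated counts in place of TPM, *Gabra2* made up 17.5% in WT hippocampus and *Gabra3* 15.8%, the reverse of their order in TPM, and *Gabra5* made up 45.5%.

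In miR-324-null mice *Gabra5* made up 57.3 ± 1.61% of the alpha members in the hippocampus and 24.0 ± 3.54% in the neocortex, where the highest sample reached 28.8%. Of the 2 beta members, *Gabrb2* made up 56.5 ± 2.62% in WT hippocampus and 72.3 ± 1.64% in WT neocortex. In miR-324-null hippocampus its share spread from 41.9% to 62.6%, and in miR-324-null neocortex from 66.8% to 75.4%. These shares cover only the members, since other alpha and beta subunits are not counted in them. By estimated counts the beta shares turned over, because *Gabrb1* has the longest transcript of the members: *Gabrb2* then made up 26.4% in WT hippocampus and 42.0% in WT neocortex.

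The subunits of tonic inhibition differed in proportion too. The ratio of *Gabra5* to *Gabrd* in TPM was 5.72 ± 0.601 in WT hippocampus and 0.583 ± 0.0838 in WT neocortex. It was 7.10 ± 1.47 in miR-324-null hippocampus and 0.804 ± 0.242 in miR-324-null neocortex, and ranged from 0.551 to 1.06 there. The ratio of *Gabra4* to *Gabrd*, which often assemble together, was 1.77 ± 0.224 in WT hippocampus and 0.681 ± 0.0886 in WT neocortex.

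**Figure D3:**
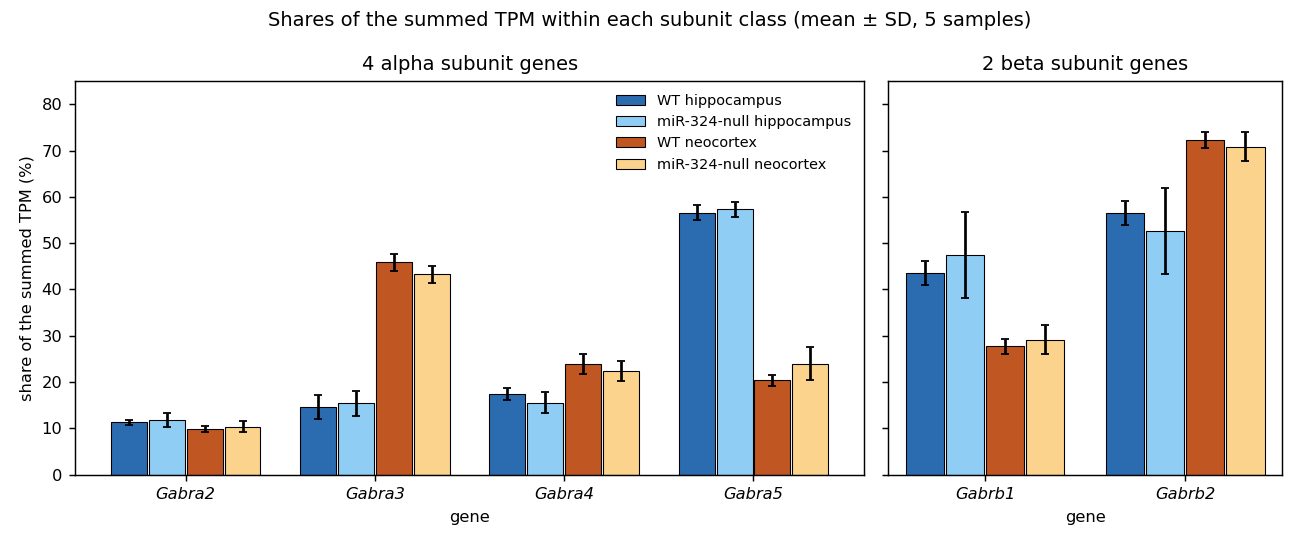
Share of each member in the summed TPM of the 4 alpha members (left) and of the 2 beta members (right), in percent from 0, as mean ± SD of 5 samples for the 4 groups. *Gabra5* held 56.6% of the alpha members in WT hippocampus and 20.4% in WT neocortex, and *Gabra3* held 14.6% and 45.9%.

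Transcripts of the members were tested in a fit of all transcripts. In WT, 13 of the 27 transcripts passed the filter on low counts and 9 were called between tissues, against 10.1% of 35272 transcripts tested. With the replicate number as a block 6 were called, and Gabrb1-201, Gabrb2-201 and Gabrd-203 missed the threshold (adjusted p = 0.0556, 0.0719 and 0.13 by edgeR). In miR-324-null mice 15 passed the filter and 7 were called, against 6.73% of 36337. Of the 27, 3 stayed under 3 estimated counts in every sample, 1 of *Gabrb1* and 2 of *Gabrb2*. A single transcript held most of the TPM of *Gabra3* (Gabra3-201, 90.1 ± 5.54% in WT hippocampus), *Gabra4* (Gabra4-201, 89.0 ± 4.88%), *Gabrb2* (Gabrb2-201, 97.3 ± 2.04%) and *Gabrd* (Gabrd-201, 89.7 ± 3.15%), and Gabrb1-201 held the whole of *Gabrb1*.

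*Gabra5* had 3 coding transcripts, all of which were tested in WT. Gabra5-202 led with 88.5 ± 5.53 TPM in WT hippocampus and 26.9 ± 6.41 TPM in WT neocortex (log2 fold change 1.76, adjusted p = 4.91e-05). Gabra5-201 stood at 18.1 ± 5.98 and 3.61 ± 2.03 TPM (log2 fold change 2.37, adjusted p = 0.00282), and Gabra5-203 at 22.9 ± 5.94 and 5.51 ± 2.60 TPM (log2 fold change 2.10, adjusted p = 0.00316). All 3 were thus higher in WT hippocampus. In miR-324-null hippocampus Gabra5-203 ranged from 0.0166 to 31.5 TPM between samples, while the whole gene ranged from 129 to 147 TPM, so the division of reads between these transcripts was far less certain than their sum. *Gabra2* was split between the coding Gabra2-203 (54.1 ± 10.4% of its TPM in WT hippocampus) and Gabra2-204, annotated as a target of nonsense-mediated decay (35.5 ± 10.7%). Of this pair, Gabra2-203 was called between tissues in WT (log2 fold change 0.70, adjusted p = 0.0022).

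**Figure D4:**
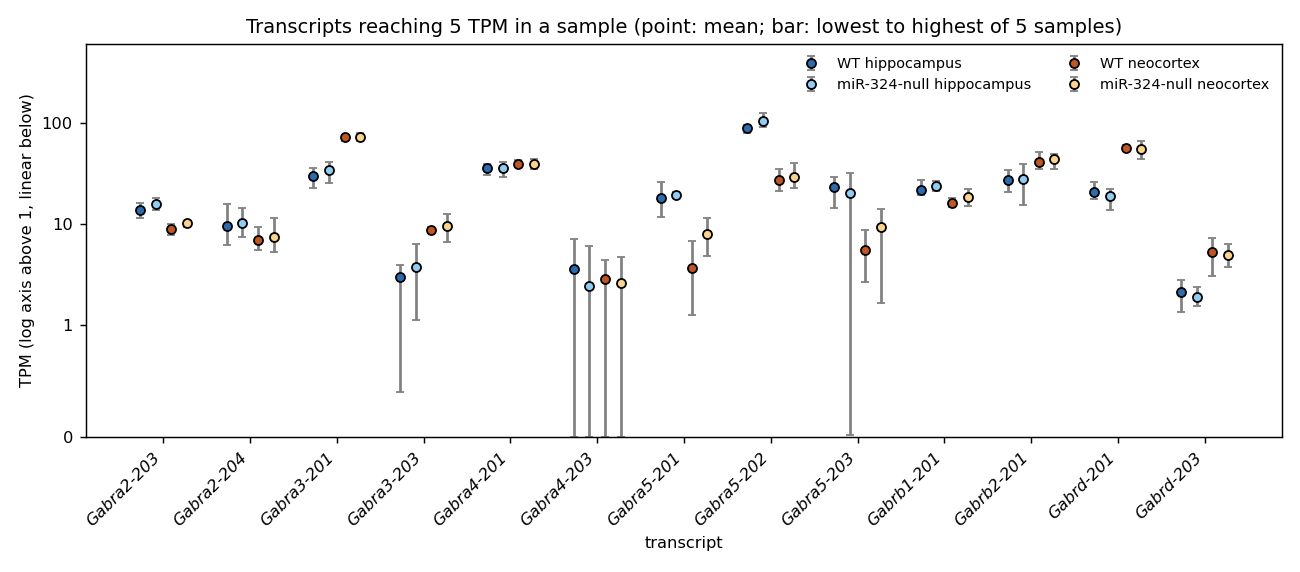
TPM of the 13 member transcripts that reached 5 TPM in a sample (vertical axis, logarithmic above 1 and linear below), with the mean of 5 samples as a point and the lowest to the highest sample as a bar, for the 4 groups. Gabra5-202 stood at 88.5 TPM in WT hippocampus and 26.9 TPM in WT neocortex, and the bar of Gabra5-203 in miR-324-null hippocampus runs from 0.0166 to 31.5 TPM.

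Proteins that assemble, traffic and anchor the receptor were examined as a list of 20 genes, of which 19 were in the files and were tested. Between tissues in WT 8 of them were higher in the hippocampus and 3 lower, where 36.1% of all genes were called. The 4 largest were *Hap1*, a huntingtin-associated protein that takes part in the recycling of the receptor (log2 fold change 0.85, adjusted p = 0.000433), the kinesin *Kif5a* (-0.63, adjusted p = 0.000105), *Plcl2* (-0.62, adjusted p = 3.85e-05) and the synaptic adhesion protein *Slitrk3* (0.50, adjusted p = 0.000249). In miR-324-null mice, where 27.4% of all genes were called, 5 were higher and 2 lower, led by *Kif5a* (-0.63, adjusted p = 0.00018), *Slitrk3* (0.51, adjusted p = 0.000387), the fusion ATPase *Nsf* (0.46, adjusted p = 6.67e-05) and *Plcl2* (-0.37, adjusted p = 0.0185). The median log2 fold change of the 19 genes was 0.10 in WT and 0.00 in miR-324-null mice, against 0.00 and 0.01 over all genes tested. Of 12 other GABA-A subunit genes, 6 were tested in each of these comparisons, and 1 was higher and 3 were lower in the hippocampus in either genotype.

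The comparison of genotypes asked whether loss of miR-324 changed the subunits. By edgeR's quasi-likelihood test 0 of the 7 members were called in hippocampal samples, against 0.115% of 14796 genes (0.0676% with higher levels after the deletion and 0.0473% with lower ones). In neocortical samples 0 of 7 were called, against 0.315% of 14930 genes (0.161% higher and 0.154% lower). That background was itself unstable, since the 47 genes behind it were 27 to 566 with 1 library left out (566 without miR-324-null neocortex replicate 5) and 241 with DESeq2. At an unadjusted p under 0.05 there was 1 member in each tissue, *Gabra5*, against 11.1% of all genes in hippocampal and 12.2% in neocortical samples, a share near 1 of 7, and DESeq2, with or without an offset for transcript length, called 0 in both. The ranges of WT and miR-324-null samples overlapped for all 7 members in both tissues, against ranges that did not overlap for 2.55% and 2.3% of genes. Over the members the median log2 fold change was 0.14 for hippocampus and 0.06 for neocortex, against 0.00 over all genes in both.

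*Gabra5* had the lowest adjusted p of the members in both tissues in the fit as designed. The WT hippocampal mean was 191 ± 15.1 CPM and the miR-324-null mean 211 ± 11.1 CPM (SD, n = 5 each), with a log2 fold change of 0.15 (95% interval 0.01 to 0.28, adjusted p = 0.412). The WT neocortical mean was 52.6 ± 5.24 CPM and the miR-324-null mean 65.0 ± 10.2 CPM, with a log2 fold change of 0.31 (95% interval 0.09 to 0.53, adjusted p = 0.252). Over 19 alternatives the adjusted p of the neocortical difference ranged from 0.0673 to 0.468, and that of *Gabrb1* there from 0.0631 to 0.68. In the hippocampus *Gabra2*, *Gabrb1* and *Gabra3* reached lower values (0.243, 0.286 and 0.338) than *Gabra5* (0.402) under at least 1 alternative. The exact permutation test gave p = 0.0397 in the hippocampus and p = 0.0476 in the neocortex (two-sided), among 28 such tests of members. The highest neocortical samples, miR-324-null replicates 1 and 2 at 71.8 and 78.4 CPM, also had the lowest summed levels of neocortical projection neuron markers, 475 and 458 TPM, against 548 to 726 TPM in the other miR-324-null and 594 to 660 TPM in the WT neocortical samples. Replicate 2 was also the neocortical library rich in choroid plexus markers. The part of tissue composition in this difference was not tested.

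Marker lists of other regions and cells were compared between genotypes in the neocortex, and none of their genes passed the threshold. The striatal markers had higher fitted levels in miR-324-null neocortex for 8 of 8 genes, with a median log2 fold change of 1.05, those of dentate granule cells for 4 of 5 with a median of 0.47, and those of neocortical projection neurons for 2 of 10 with a median of -0.21. Fitted levels were also higher for 3 of 3 tested choroid plexus markers (median 1.55), 2 of 3 CA1 markers (median 0.60), 4 of 5 thalamic markers (median 0.22) and 5 of 8 interneuron markers (median 0.05), and for 0 of 2 tested CA3 markers (median -0.13). The level of *Zbtb20*, which marks hippocampal pyramidal and granule cells, was 4.35 ± 0.285 TPM in WT and 6.57 ± 1.85 TPM in miR-324-null neocortex (log2 fold change 0.44, adjusted p = 0.305). In neocortical samples 12.2% of all genes had an unadjusted p under 0.05 by edgeR. So did 8 of 8 striatal, 6 of 10 neocortical, 3 of 3 tested choroid plexus and 2 of 3 CA1 markers. It held for 2 of 5 dentate granule cell, 2 of 5 thalamic and 3 of 8 interneuron markers and for *Zbtb20*. No tested CA3, astrocyte, oligodendrocyte, microglial or endothelial marker had it. In hippocampal samples no marker gene passed the adjusted threshold either. Fitted levels in miR-324-null mice were higher for 6 of 8 interneuron markers (median 0.12), 2 of 3 CA1 and 2 of 3 CA3 markers. The same held for 2 of 5 dentate granule cell, 3 of 10 neocortical, 1 of 8 striatal and 1 of 5 thalamic markers. It held for 0 of 4 tested choroid plexus and 0 of 3 astrocyte markers (median -0.17). Of the interneuron markers 3 had an unadjusted p under 0.05 by edgeR, against 11.1% of all genes. The part of these markers in the fold changes of the members was not tested either.

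None of the other members had an unadjusted p under 0.05. In the hippocampus the log2 fold changes of miR-324-null over WT were 0.16 for *Gabra2* (95% interval -0.0030 to 0.31), 0.20 for *Gabra3* (-0.10 to 0.50), 0.00 for *Gabra4* (-0.18 to 0.18) and -0.14 for *Gabrd* (-0.39 to 0.10). *Gabrb1*, which carries 2 of the 3p seed matches, had a log2 fold change of 0.14 (95% interval -0.03 to 0.31, adjusted p = 0.534) in the hippocampus and 0.17 (95% interval -0.0024 to 0.34, adjusted p = 0.415) in the neocortex. *Gabrd*, which carries the third, had -0.10 (95% interval -0.33 to 0.12, adjusted p = 0.747) in the neocortex, a negative value in both tissues. *Gabrb2* was the least certain in the hippocampus, at 0.00 with an interval from -0.48 to 0.49, and had 0.06 (95% interval -0.12 to 0.25) in the neocortex. There *Gabra2* had 0.15 (95% interval -0.01 to 0.30), *Gabra3* -0.01 (-0.14 to 0.11) and *Gabra4* -0.02 (-0.14 to 0.11).

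Whether the effect of genotype differed between tissues was tested as an interaction in a fit of all 20 samples, which treats every sample as if from a separate mouse. By edgeR's quasi-likelihood test 0 of the 7 members were called, against 0.0195% of 15391 genes (0% higher and 0.0195% lower). No member had an unadjusted p under 0.05 by edgeR, against 5.57% of all genes, and DESeq2 called 0. The estimates ran from -0.16 for *Gabra5* (95% interval -0.42 to 0.10) to 0.22 for *Gabra3* (95% interval -0.11 to 0.55), as the log2 fold change in the hippocampus minus that in the neocortex. Among transcripts, 0 of the 13 member transcripts tested in hippocampal samples and 0 of the 14 in neocortical samples were called between genotypes by edgeR, against 0.0291% and 0.0249% of all. Of these 1 had an unadjusted p under 0.05 by edgeR, against 4.62% of all transcripts in hippocampal and 6.26% in neocortical samples. It was Gabra5-201 in the neocortex, at 3.61 ± 2.03 TPM in WT and 7.95 ± 2.59 TPM in miR-324-null samples (adjusted p = 0.734). By edgeR 0 of the 19 assembly and trafficking genes were called between genotypes in either tissue, while 3 had an unadjusted p under 0.05 in hippocampal and 6 in neocortical samples, where 11.1% and 12.2% of all genes had. Of the other GABA-A subunits 0 of 5 tested in hippocampal samples were called, with 0 at an unadjusted p under 0.05, and 0 of 6 in neocortical samples, with 3.

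The genes most like each member were sought by the Pearson correlation of log2 CPM over the 20 samples, after the mean of each group was taken out, so that only variation between samples of a group counts. The samples share depth, dissection and RNA quality, and the values are descriptions. For each member the 3 highest of all genes tested in both tissues are given. Such a choice favours high values, and the level that selection alone would reach was not computed. *Gabrb2* had the closest likeness of all members, with *Dgki*, a diacylglycerol kinase (r = 0.975), *Stxbp5l* (r = 0.962) and the neuronal transcription factor *Myt1l* (r = 0.957). *Dgki* stood at 10.7 and 9.95 CPM in miR-324-null hippocampus replicates 1 and 2 and at 24.4, 25.7 and 21.3 CPM in replicates 3 to 5, so the pair of libraries low for *Gabrb2* was low for it as well. *Gabra4* was most like *Pdyn*, the prodynorphin gene (r = 0.884), *Tomm70a* (r = 0.87) and *Dlg3* (r = 0.855). *Gabrd* was most like *AI593442* (r = 0.91), *Hipk4* (r = 0.861) and *Camkk2* (r = 0.856), and *Gabrb1* was most like *Lsamp* (r = 0.906), *Zkscan16* (r = 0.874) and *Tenm1* (r = 0.871).

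The highest values of the other alpha members were 0.82 to 0.878, against 0.884 for *Gabra4*. *Gabra2* was most like *Cfap300* (r = 0.878), *E2f5* (r = 0.855) and *Grhl1* (r = 0.847), *Gabra3* was most like *Dpp10* (r = 0.878), *Bmp3* (r = 0.827) and *Camk1* (r = 0.823), and *Gabra5* was most like *Lats2* (r = 0.82), *Il16* (r = 0.797) and *Clmn* (r = 0.795). Among the members themselves the highest values were those of *Gabra4* with *Gabrd* (r = 0.669) and with *Gabrb2* (r = 0.642), and the lowest that of *Gabra5* with *Gabrd* (r = -0.45). With the summed levels of the marker lists, the values farthest from 0 were those of *Gabra3* with choroid plexus markers (r = -0.791), *Gabrb2* with astrocyte markers (r = 0.718), *Gabra3* with dentate granule cell markers (r = -0.701) and *Gabrb1* with astrocyte markers (r = 0.667). For the dentate granule cell markers *Gabra4* had r = 0.665 and *Gabrd* r = 0.0818. *Gabra2* and *Gabra4* lie in a cluster on chromosome 5 with *Gabrb1*, within 1.19 Mb, yet *Gabra2* and *Gabra4* had r = -0.02 over the samples and *Gabra2* and *Gabrb1* had r = 0.5.

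In the genome (GRCm38) *Gabra2* lies at chr5:70957597-71095849, *Gabra4* at chr5:71569749-71658308 and *Gabrb1* at chr5:71658113-72149037, the last on the plus strand and the others on the minus strand. *Gabra3* lies at chrX:72432681-72656848, *Gabra5* at chr7:57407672-57510059 and *Gabrd* at chr4:155384980-155398112, all on the minus strand. *Gabrb2*, at chr11:42419757-42629028 on the plus strand, shares its chromosome with *Mir324*, which lies at 70012043 to 70012131, but ends 27.4 Mb before it.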

How the data were processed

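Stranded poly(A) libraries were quantified by the authors with kallisto against mouse GRCm38 transcripts, and the deposited files give, for each transcript and sample, an estimated count and a TPM value (scaled by library size and effective length). The build noted in the labels is GRCh38, whereas the identifiers are mouse. The kallisto version and strand setting are not given in the sources used here.

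Both values were summed per gene with the GENCODE annotation of GRCm38, which matched 113580 of 115270 transcripts. Estimated counts were rounded, filtered with filterByExpr, normalised by TMM and tested with edgeR 4.0.16 (quasi-likelihood, Benjamini-Hochberg over all genes), one fit for each comparison, in R 4.3.3. Standard errors were derived from the F statistic. Exact permutation tests used scipy 1.17.1 on log2 CPM without a prior count. Correlations between genes used log2 CPM with a prior count of 2. Alternatives were DESeq2 1.42.0, its size factors, other filters, length offsets, all 20 samples in 1 fit, a replicate block and leaving out each sample. Leaving out choroid plexus-rich libraries (over 1000 TPM) was added after seeing the data. Scripts were tested on simulated data.

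All 7 members are named, with the 3 genes most alike to each and up to 4 called trafficking genes per comparison with the largest change. Other GABA-A subunits are given as counts. Members and lists were chosen with earlier results of these data known. The labels do not say whether both tissues came from the same mice, so p-values measure the spread between these samples.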

Additional observations from a re-analysis of the deposited data

Results flagged for a closer look

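WT neocortex replicate 1 had 116.8 CPM of *Gabrb2*, far from the other 4 samples of its group, which ran from 85.89 to 94.63 CPM. Its gap to the nearest sample was 0.717 of the range of the group. Of 28 groups of 5 samples examined it was the only one with such a sample, and chance alone gives about 1 in 20.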

How the results depend on the processing

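The number of members called was 0 between genotypes in both tissues, 0 for the interaction and 6 between tissues in WT under every alternative, and 5 or 6 between tissues in miR-324-null mice, where *Gabrb2* passed or missed. The cause of the differences between settings was not tested. For genotype in hippocampus, 17 genes were called in all, against 9 with at least 10 counts, 141 with DESeq2, 90 with DESeq2 and a length offset, 83 with all 20 samples, 4 with the replicate block and 10 to 31 with 1 sample left out (31 without miR-324-null replicate 5). For genotype in neocortex, 47 were called, against 26 with at least 10 counts, 241 with DESeq2, 30 with an edgeR length offset, 195 with DESeq2 and a length offset, 30 with the replicate block and 27 to 566 with 1 sample left out (566 without miR-324-null replicate 5). For the interaction, 3 were called, against 6 with DESeq2, 1 with an edgeR length offset, 9 with DESeq2 and a length offset, 1 without the choroid plexus-rich libraries and 1 to 20 with 1 sample left out (20 without miR-324-null neocortex replicate 5). Of the member transcripts called between tissues in WT, 9 became 6 with the replicate block. The labels do not say that a number marks a shared mouse. Same-numbered samples correlated from -0.172 to 0.121 between genotypes and from -0.102 to 0.101 between tissues in WT. Between tissues in miR-324-null mice they correlated from 0.0165 to 0.177 (mean 0.108, against -0.0269 for other pairs), and 3 of 5 correlated best with their own number. Among the member genes the block changed the call of *Gabrb2* in miR-324-null mice and no other. Fold changes near 0 changed sign. For *Gabra4* in hippocampus the log2 fold change of genotype was -0.0004985 with DESeq2 size factors, -0.002076 with no filter, -0.0004703 with DESeq2, -0.05126 and -0.04848 with edgeR and DESeq2 length offsets, -0.001817 with the replicate block, -0.01635 without choroid plexus-rich libraries and -0.04492 to 0.05634 with 1 sample left out. For *Gabrb2* it was -0.0008704 with DESeq2, -0.007165 and -0.006553 with the length offsets, -0.06507 with the replicate block, -0.04829 without choroid plexus-rich libraries and -0.1511 to 0.144 with 1 sample left out. In neocortex *Gabra4* had 0.01449 without choroid plexus-rich libraries and -0.05688 to 0.01449 with 1 sample left out, and *Gabra3* -0.05282 to 0.01888. For the interaction, *Gabra2* had -0.05466 without choroid plexus-rich libraries and -0.03461 to 0.07333 with 1 sample left out. *Gabra4* had -0.02876 and -0.02261 with the length offsets, -0.02262 without choroid plexus-rich libraries and -0.02622 to 0.07693 with 1 sample left out. With 1 sample left out *Gabrb1* had -0.08908 to 0.05291, *Gabrb2* -0.2089 to 0.0834 and *Gabrd* -0.09042 to 0.0405. Of the 24 shares, 20 moved by more than the spread between samples when estimated counts replaced TPM.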
